A study of Danio rerio with 4 samples.

Results

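Genes that build, modify, bind or cut the extracellular matrix were followed in cells of gastrulating zebrafish embryos. They comprise collagens, laminins, fibronectin, proteoglycans, integrins, the enzymes and chaperone that prepare collagen inside the cell, and the proteases that cut the matrix. Members were all rows of the deposited table whose gene symbol begins with 1 of a fixed set of family names. No expression value enters this match, but the names were chosen with earlier results of these data known. This rule matched 198 of 32266 gene rows, and 44 of the 198 had at least 1 count in the 4 libraries, out of 8640 genes with a count. The symbol table gives many zebrafish genes a human-style name, printed here in capitals.

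The libraries came from AB-strain embryos at 9 hours post fertilization, during gastrulation. In 1 group the embryos carried scattered cells with β-catCA, a β-catenin that is constitutively active and turns on Wnt target genes in its carriers; in the control group the scattered cells carried green fluorescent protein (GFP). Both lots of each group hold the GFP-negative cells of such mosaics, taken by flow sorting, so they come from the same embryos as the marked cells and did not show the marker. Nothing in the labels says how near to a marked cell the sorted cells had been, how many embryos were pooled, or whether lots 1 and 2 were different clutches. The spread that the p-values rest on is that between these 4 libraries and may be technical. The comparison asks how these unmarked cells differ between mosaics with β-catCA cells and control mosaics.

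In a gastrula the matrix is thin and newly laid down: fibronectin and laminin assemble at tissue boundaries, and migrating cells grip fibronectin through integrins. Collagen chains are modified in the endoplasmic reticulum before export. Prolyl 4-hydroxylase, made of α subunits (P4HA) and the β subunit P4HB, hydroxylates prolines so that the triple helix is stable, lysyl hydroxylases (PLOD) modify lysines for cross-linking, and the chaperone Hsp47 (SERPINH1) holds the folded helix until export.

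CEL-Seq2 counts molecules by a unique molecular identifier (UMI) at the 3′ end of the transcript, so a count does not grow with transcript length. Levels of different genes are set side by side, as far as their 3′ ends were counted alike, as counts per 1000000 gene UMIs (CPM, scaled by trimmed-mean, TMM, factors). Gene UMIs were 61304 and 59260 in control lots 1 and 2, and 65098 and 8403 in β-catCA lots 1 and 2. In the shallow β-catCA lot 2, 1 UMI stands for 124 CPM and a count of 0 allows up to 3 UMIs, or 373 CPM; in the other libraries the same limit lies between 45.7 and 49.4 CPM. Intervals and limits cover counting error only. In bulk samples, fewer cells of a type and less RNA per cell cannot be told apart.

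The members together held 679 UMIs, with 204 and 215 in the control lots and 235 and 25 in the β-catCA lots. That was 0.333% and 0.363% of the gene UMIs in the controls and 0.361% and 0.298% in the β-catCA mosaics, where the 95% exact binomial interval of β-catCA lot 2 ran from 0.193% to 0.439%. Summed levels were 3412 ± 181 CPM in the control lots and 3348 ± 334 CPM in the β-catCA lots (± SD over 2 lots each), and the groups overlapped. The UMIs were concentrated in few genes: 7 members held 67.0% of them, while 26 members had 1 to 4 UMIs each and held 50 UMIs in all. β-catCA lot 2 had a UMI for 10 of the 44 members, and only 3 members had more than 3 UMIs there.

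Collagen-modifying genes were the most abundant class in the control lots, followed by fibronectin and then the laminins and nidogens. The hydroxylases and the chaperone summed to 1573 ± 290 CPM in the control lots and 1249 ± 170 CPM in the β-catCA lots (± SD over 2 lots each). Fibronectin summed to 635 ± 56.1 CPM against 799 ± 250 CPM, and laminins and nidogens to 503 ± 153 CPM against 407 ± 223 CPM, in the same order. In the hydroxylase and chaperone class, β-catCA lot 2 at 1369.2 CPM was level with control lot 1 at 1368.5 CPM, and in the other 2 classes the lots of both groups also overlapped.

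**Figure D1:**
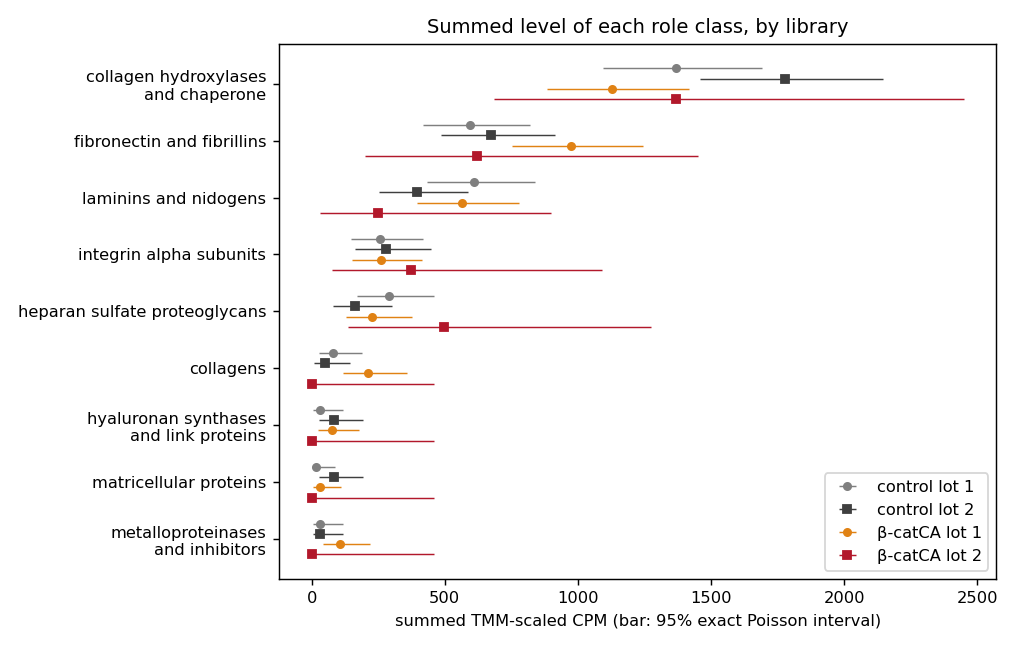
Summed TMM-scaled CPM of each role class (horizontal axis) in each library (points), with 95% exact Poisson intervals. Collagen hydroxylases and the chaperone led in both groups, with 1573 CPM on average in the controls, and the bars of the shallow β-catCA lot 2 are the widest in every class.

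The α subunit gene P4HA2 (ENSDARG00000010085) had the largest fitted change of the 7 members that could be tested. It was set to be named from the start, with earlier results of these data known. Its prolyl 4-hydroxylase subunit carries the catalytic site. P4HA2 had 33 and 36 UMIs in the control lots, and 11 and 1 UMIs in the β-catCA lots. On the CPM scale these were 531 and 593 in the controls and 168 and 124 in the β-catCA mosaics, so both β-catCA libraries lay below both controls. The means were 562 ± 43.5 CPM and 146 ± 30.6 CPM (± SD over 2 lots each), and the small SD of the β-catCA group does not show close replicates, since 1 of its values is a single UMI. The fitted log2 change, β-catCA mosaic minus control, was -1.78 (SE 0.50, 95% interval from -2.77 to -0.78, edgeR adjusted p = 0.070 over all 1071 tested genes), so P4HA2 did not pass the threshold of 0.05. It passed without β-catCA lot 2, with a log2 change of -1.75. That leaves β-catCA lot 1 alone in its group, assumed to vary like the controls. This setting also called the most genes of all settings, so passing there is read as no result about P4HA2. In the other 11 settings tried it did not pass, and the change was negative in all 12. These settings reuse the same libraries, in which the groups did not overlap, so the steady sign is no separate support.

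**Figure D2:**
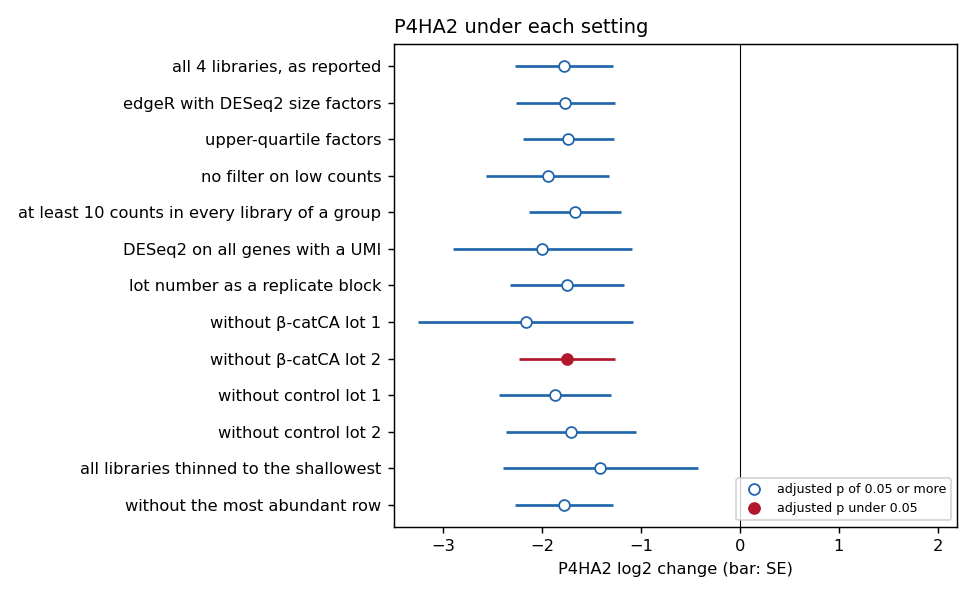
Fitted log2 change of P4HA2 (horizontal axis, bars are 1 SE) with all 4 libraries and under 12 other settings, which reuse the same libraries. All values are negative, from -2.17 without β-catCA lot 1 to -1.41 with all libraries thinned to the depth of the shallowest, and only the setting without β-catCA lot 2 is past the threshold.

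Within the class, where no scaling between libraries enters, the shares lay in the same direction. They rest on the same P4HA2 UMIs as the levels above, so they are no separate result. P4HA2 supplied 33 of 85 hydroxylase and chaperone UMIs in control lot 1 and 36 of 108 in control lot 2, or 38.8% and 33.3%. In the β-catCA mosaics it supplied 11 of 74 in lot 1 and 1 of 11 in lot 2, or 14.9% and 9.09%. The 95% exact binomial interval of β-catCA lot 1, from 7.66% to 25.04%, just overlapped that of control lot 2, from 24.6% to 43.1%, and the interval of β-catCA lot 2 reached 41.3%. Of all member UMIs, P4HA2 held 16.2% and 16.7% in the control lots and 4.68% and 4% in the β-catCA lots. Without P4HA2, the summed member level was 2850 ± 137 CPM in the control lots and 3202 ± 303 CPM in the β-catCA lots (± SD over 2 lots each). Leaving out a member that is lower in the β-catCA lots raises their sum relative to the controls, so this is no separate result. β-catCA lot 2, at 2987 CPM, stood above control lot 2, at 2947 CPM, by less than 1 of its UMIs.

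**Figure D3:**
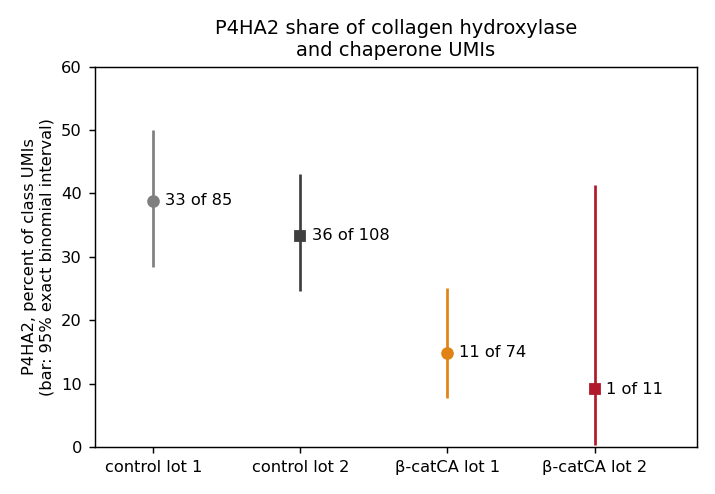
Share of P4HA2 among the UMIs of all collagen hydroxylase and chaperone genes (vertical axis, percent) in each library, with 95% exact binomial intervals and the UMIs written beside the points. Both control lots, at 38.8% and 33.3%, lie above both β-catCA lots, at 14.9% and 9.09%, and the interval of β-catCA lot 2 is wide because it rests on 11 UMIs.

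P4HA2 was nearly the only α subunit gene counted in the control lots. The other α subunit rows, P4HA1 and p4ha1a, had 5 and 2 UMIs over all libraries, and P4HA3 had 0. P4HA1 had 4 of its 5 UMIs in β-catCA lot 1, and P4HA2 supplied 11 of 15 α subunit UMIs there. It supplied 33 of 34 in control lot 1, 36 of 38 in control lot 2 and the 1 UMI of β-catCA lot 2, so the lower share was seen in 1 library only. These low rows fall outside the rule for named genes and were picked after their values were seen.

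The β subunit gene P4HB (ENSDARG00000105116), which also encodes a protein disulfide isomerase of the endoplasmic reticulum, had 19 and 17 UMIs in the control lots and 13 and 5 in the β-catCA lots. Its levels of 306 and 279.9 CPM in the controls lay between the 198 and 622 CPM of the β-catCA lots. The fitted log2 change of -0.18 had an SE of 0.52 (edgeR adjusted p = 0.95), and it turned to 1.06 without β-catCA lot 1.

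Both rows named SERPINH1, the collagen chaperone Hsp47, were tested, with fitted changes of opposite sign. The row ENSDARG00000019949 had 10 and 25 UMIs in the control lots and 26 and 4 in the β-catCA lots. Its levels were 161 and 412 CPM in the control lots and 396 and 498 CPM in the β-catCA lots, so control lot 1 stood low and the groups overlapped. The log2 change was 0.53 (SE 0.48, edgeR adjusted p = 0.79), and it was -0.012 without control lot 1. The row ENSDARG00000075954 had 17 and 18 UMIs in the control lots, and 10 and 0 in the β-catCA lots. Its levels were 274 and 296 CPM in the control lots and 152 CPM in β-catCA lot 1, with β-catCA lot 2 at 0. That 0 allows up to 373 CPM, above both control lots, so the lower level rests on β-catCA lot 1. The log2 change was -1.08 (SE 0.58, 95% interval from -2.26 to 0.10, edgeR adjusted p = 0.53); it was -6.65 without β-catCA lot 1, where the group is left with the 0 alone and the value depends on the prior count. The first row supplied 10 of 27 SERPINH1 UMIs in control lot 1, 25 of 43 in control lot 2, 26 of 36 in β-catCA lot 1 and 4 of 4 in β-catCA lot 2. Counting could split reads between such copies, so the values of each row are uncertain, and whether the 2 rows differ in their response was not tested.

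Among lysyl hydroxylases, PLOD3, whose enzyme also adds sugars to collagen lysines, had 3 and 8 UMIs in the control lots and 8 and 1 in the β-catCA lots. PLOD1 and PLOD2 had 4 and 2 UMIs in all. PLOD3 thus lay between 48.3 and 132 CPM in every library, and no difference was detectable at this depth.

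Fibronectin had the most abundant transcript of a matrix protein among the members. The FN1 row ENSDARG00000019815 had 34 and 37 UMIs in the control lots and 50 and 5 in the β-catCA lots. Its levels were 547 and 609 CPM in the control lots and 762 and 622 CPM in the β-catCA lots, so both β-catCA libraries lay above both controls, lot 2 by less than 1 of its UMIs. The means were 578 ± 43.7 CPM and 692 ± 99.1 CPM (± SD over 2 lots each), with a log2 change of 0.34 (SE 0.37, 95% interval from -0.40 to 1.09, edgeR adjusted p = 0.84). An interval of this width does not show that the groups are alike. The second FN1 row, ENSDARG00000006526, had 3 and 4 UMIs in the control lots and 14 and 0 in the β-catCA lots. It was too sparse for the filter, and without the filter its log2 change was 1.51 (SE 0.81, unadjusted p = 0.061, edgeR adjusted p = 0.77). That difference rests on β-catCA lot 1, at 213 CPM, because a count of 0 in β-catCA lot 2 allows up to 373 CPM.

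ITGA5 (ENSDARG00000006353) encodes the α subunit of the main fibronectin receptor. It had 13 and 14 UMIs in the control lots and 17 and 3 in the β-catCA lots. Its levels were 209 and 231 CPM in the control lots and 259 and 373 CPM in the β-catCA lots. Both β-catCA libraries lay above both controls. The 3 UMIs of β-catCA lot 2 have a 95% exact Poisson interval from 77.0 to 1091 CPM, which takes in both control values. The log2 change was 0.32 (SE 0.52, 95% interval from -0.73 to 1.37, edgeR adjusted p = 0.91). Of 22 integrin α rows, 4 had a UMI: ITGA10, ITGA6 and ITGAV had 3, 2 and 1 UMIs. All 15 rows that begin with the integrin β name were at 0 in every library, the 4 ITGB1 rows among them, so the partner subunit of ITGA5 was not measured here. Of these 15, 12 are integrin subunits and 3 (ITGB1BP1, itgb3bp and ITGBL1) are not. Whether the counting reached the 3′ ends of these transcripts was not tested, so the zeros are no measure of their levels.

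Basement membrane genes came next. LAMB1 (ENSDARG00000101209), a laminin β chain, had 16 and 11 UMIs in the control lots and 9 and 1 in the β-catCA lots. Its levels were 258 and 181 CPM in the control lots and 137 and 124 CPM in the β-catCA lots, and the groups did not overlap, though the value of β-catCA lot 2 is 1 UMI. The log2 change was -0.69 (SE 0.59, 95% interval from -1.86 to 0.49, edgeR adjusted p = 0.76). LAMA1, the α chain gene, had 2 and 6 UMIs in the control lots and 4 and 0 in the β-catCA lots, and lamc1, a γ chain gene, had 4 in all. The nidogens link laminin to collagen IV networks. NID1 had 8 and 5 UMIs in the control lots and 10 and 1 in the β-catCA lots. NID2 had 10 and 2 UMIs in the control lots and 12 and 0 in the β-catCA lots, and its control lots, at 161 and 32.9 CPM, stood far apart.

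**Figure D4:**
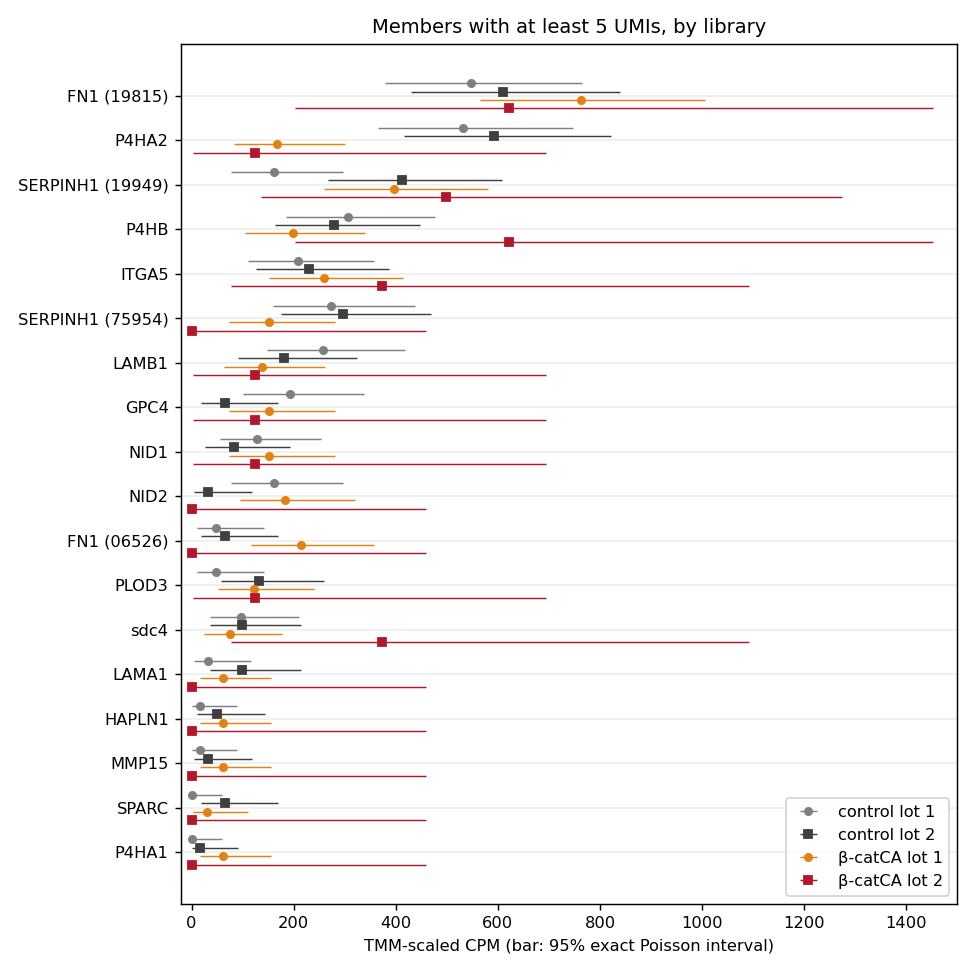
TMM-scaled CPM (horizontal axis) of the 18 members with at least 5 UMIs in each library (points), with 95% exact Poisson intervals; digits in parentheses are the last 5 of the gene identifier where 2 rows share a symbol. P4HA2 and the first FN1 row stand highest in the control lots, at 562 and 578 CPM on average, and in the β-catCA lots P4HA2 is at 168 and 124 CPM while that FN1 row is at 762 and 622 CPM.

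In the controls the order of levels was led by FN1 and P4HA2, which ranked 265 and 278 among all 8640 genes with a UMI, and whose ranges over the 2 lots overlapped. P4HB at 293 ± 18.4 CPM and the SERPINH1 rows at 286 ± 177 CPM and 285 ± 16.0 CPM followed, with no gap between them beyond their spread. ITGA5 and LAMB1 came after, at 219.9 ± 15.0 CPM and 219 ± 54.1 CPM (SD, n = 2 for each). Both lots of P4HA2 were above both lots of P4HB and of every lower member.

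Proteoglycans of the cell surface were detected through GPC4 and sdc4. GPC4 encodes a glypican that zebrafish embryos need for the narrowing and lengthening of the body axis. It had 12 and 4 UMIs in the control lots and 10 and 1 in the β-catCA lots, so the groups overlapped. The syndecan gene sdc4, whose product binds fibronectin together with integrins, had 6 and 6 UMIs in the control lots and 5 and 3 in the β-catCA lots; the 3 UMIs of the shallow lot stand for 373 CPM, no more than a count of 0 allows there. The perlecan gene HSPG2 and the agrin gene AGRN were among the 12 rows of this class at 0.

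Hyaluronan genes were close to the detection limit. HAPLN1, a link protein that ties hyaluronan to proteoglycans, had 1 and 3 UMIs in the control lots and 4 and 0 in the β-catCA lots. HAS2, a hyaluronan synthase that zebrafish gastrula cells need for migration, had 3 UMIs, all in the controls. Among proteases and inhibitors, MMP15, a membrane-bound metalloproteinase, led with 7 UMIs (1 and 2 in the control lots, 4 and 0 in the β-catCA lots). MMP2, MMP9, mmp17b and a second MMP15 row had 1 UMI each. SPARC, a collagen-binding matricellular protein, had 0 and 4 UMIs in the control lots and 2 and 0 in the β-catCA lots, and THBS3 had 2 UMIs. The name pattern for lysyl oxidases matched 12 rows, all at 0 UMIs: 10 are lysyl oxidase genes, whose enzymes cross-link collagen, and 2 are named LOXHD1, which is no lysyl oxidase.

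Collagens themselves were barely counted: 12 of 56 rows had a UMI, with 22 UMIs in all and at most 4 in a row. The highest was col4a5, a basement membrane collagen IV chain, with 4 UMIs, and its neighbour in the same family, col4a6, had 2. COL11A1 and col18a1a had 3 each, all in β-catCA lot 1. The remaining rows were col16a1 and COL9A2 with 2 UMIs each, and COL2A1, col9a1b, col9a3, COL1A2, COL6A2 and COL12A1 with 1 each; these names were picked after their values were seen. β-catCA lot 1 held 14 of the 22 collagen UMIs, or 63.6%, while it held 33.5% of all gene UMIs. The control lots had 5 and 3, and β-catCA lot 2 had 0. On the CPM scale that is 213 in β-catCA lot 1 against 80.5 and 49.4 in the controls, and the 0 of β-catCA lot 2 allows up to 373 CPM, so this difference rests on 1 library and was not tested.

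Across all genes edgeR called 9 of 1071, or 0.84%, with 0.28% higher and 0.56% lower in the β-catCA mosaics. Of the members, 7 passed the filter on low counts and 0 of these were called. At an unadjusted p under 0.05 there was 1 member, P4HA2, where 10.5% of all tested genes were at such a p. DESeq2 called 0 of the 44 members, beside 1 of all 8640 genes, so its 0 is no separate support. Positive changes were fitted for 48.2% of all tested genes. Of the 7 members, 3 had positive and 4 had negative fitted changes, with a median of -0.18 against -0.03 for all tested genes. Leaving out β-catCA lot 2 gave a median of 0.22 over the 10 members then tested, leaving out β-catCA lot 1 gave 0.09 over 9, and thinning all libraries to 8403 UMIs gave 0.21 over the same 7, so its sign was not stable. Groups did not overlap for 5 of the 7, beside 40.8% of all tested genes. For each of the 5 the value of β-catCA lot 2 is 5 UMIs or fewer: 0 for the second SERPINH1 row, 1 each for P4HA2 and LAMB1, 3 for ITGA5 and 5 for FN1. The count is therefore read as no result about the members. The second SERPINH1 row and LAMB1 passed the filter through the control lots alone, P4HA2 through both control lots and β-catCA lot 1. The first SERPINH1 row passed through both β-catCA lots and 1 control lot. Rows that passed through the control lots alone were kept because they are high there, and counts over the 7 say nothing of the other 37 members.

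**Figure D5:**
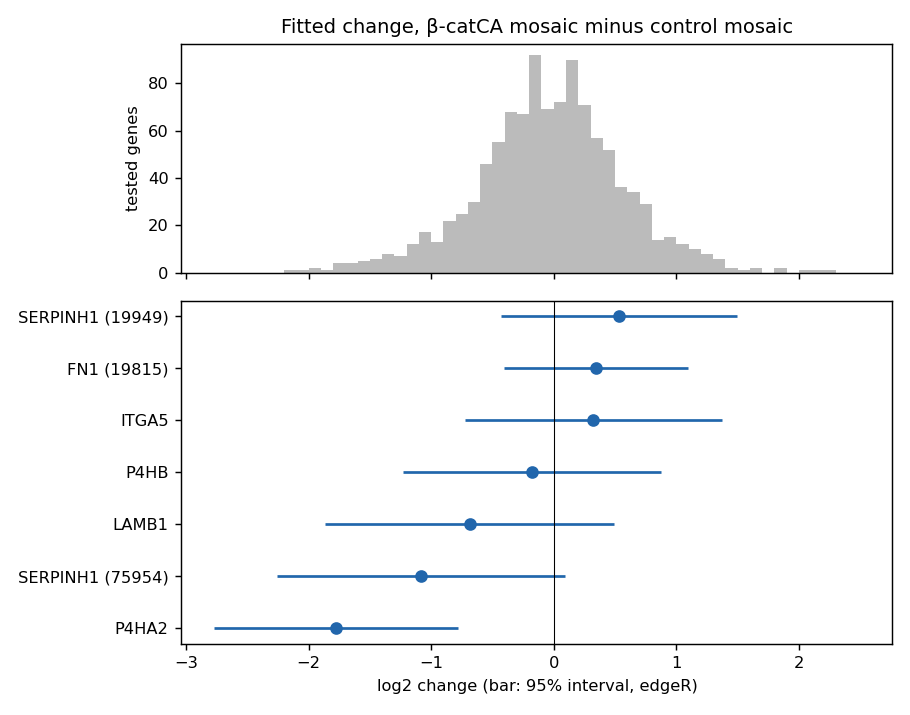
Top, the number of tested genes by fitted log2 change, β-catCA mosaic minus control mosaic (1071 genes). Bottom, the 7 tested members with 95% intervals on the same axis; P4HA2 at -1.78 is the 1 member whose interval leaves out 0.

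Without the filter, 0 of the 44 members were called (0 of 8640 genes in all), and 1 member, again P4HA2, was at an unadjusted p under 0.05, as were 220 of the 8640 genes. The 9 named members below the filter had changes from -0.40 for LAMA1 to 1.51 for the second FN1 row, 7 positive and 2 negative, with SEs from 0.74 to 1.31. No difference in them was detectable at this depth. UMIs were seen in β-catCA mosaics alone for 10 members and in controls alone for 10, each with 3 UMIs or fewer. The share over all genes was not taken and the groups differ in depth, so these counts are read as no result about the members.

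A wider list of matrix, adhesion, secretory and hypoxia-response genes outside the symbol rule was read from the same fit. Of its 254 rows, 100 had a UMI and 10 were tested; 6 had positive and 4 negative changes, 0 were called, and the median was 0.09. The most abundant were the cathepsin gene ctsla, with a log2 change of -0.13 (SE 0.36), and sar1b, a small GTPase that starts the COPII coats in which collagen leaves the endoplasmic reticulum, with 0.41 (SE 0.39). SEC23B, a COPII coat protein, had -0.58 (SE 0.42), which was -2.23 without β-catCA lot 1 (edgeR adjusted p = 0.51), the retrieval receptor gene kdelr2a had 0.05 (SE 0.47), and the disulfide isomerase gene PDIA6 had -0.15 (SE 0.53). DAG1 encodes dystroglycan, a laminin receptor. Its levels were 322 and 279.9 CPM in the control lots and 427 and 622 CPM in the β-catCA lots, the last from 5 UMIs. Its log2 change was 0.61 (SE 0.44, edgeR adjusted p = 0.70). Groups did not overlap for DAG1, sar1b and SEC23B, and overlapped for ctsla, kdelr2a and PDIA6. Beside 40.8% of all tested genes without overlap, this is read as no result.

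On that list 2 of 10 tested genes were at an unadjusted p under 0.05, beside 10.5% of all tested genes. Without the filter, 7 of its 100 rows with a UMI were at such a p, beside 220 of all 8640 genes with a UMI. The 2 tested genes were picked after their values were seen. HIF1A (ENSDARG00000034293) encodes a hypoxia-inducible transcription factor. It had 24 and 10 UMIs in the control lots and 5 and 0 in the β-catCA lots, a log2 change of -1.998 (SE 0.69, unadjusted p = 0.0056, edgeR adjusted p = 0.20), which was -1.29 without control lot 1 and -6.61, a value that depends on the prior count, without β-catCA lot 1. The levels of 386 and 165 CPM in the control lots and 76.2 CPM in β-catCA lot 1 did not overlap, but the 0 of β-catCA lot 2 allows up to 373 CPM. The cathepsin gene ctslb, known from the hatching gland, had 7 and 7 UMIs in the control lots and 24 and 2 in the β-catCA lots, a log2 change of 1.59 (SE 0.53, unadjusted p = 0.0045, edgeR adjusted p = 0.19).

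Summed markers of other cell types were read from the same libraries, with no test. Some lists share rows, so their sums are not independent. The enveloping layer and prechordal lists share klf17, the notochord and endoderm lists FOXA2, and the prechordal and neural lists both SIX3 rows. For 5 of 8 lists the groups did not overlap, beside 40.8% of single tested genes. A sum over many rows is unlike a single gene, so that share is no yardstick for the lists and no excess is read from it. In β-catCA lot 2 the 95% exact Poisson interval reached the control values for 4 of the 5, all but the enveloping layer. For that layer it ran from 1521 to 3845 CPM. Rows counted below are those with a UMI in any of the 4 libraries. Within β-catCA lot 2, only 4 enveloping layer, 4 prechordal, 3 notochord, 3 endoderm and 4 epidermal rows had a UMI. They held 20, 9, 14, 7 and 6 UMIs in that order. Markers of the enveloping layer, the outer epithelium, summed to between 939 and 1288 CPM in the control lots and between 2120 and 2490 CPM in the β-catCA lots, with 12 of 16 rows counted; krt17, anxa1c, agr1 and grhl3 were at 0. Prechordal plate markers, with 8 of 14 rows counted, summed to between 675 and 725 CPM and between 1120 and 1235 CPM in the same order, with he1.1, he1.2, he1.3, hhex, lft1 and 1 SIX3 row at 0. The gene ctslb, described above, is in this list. Without ctslb the sums were 612 and 559.9 CPM in the control lots and 869 and 871 CPM in the β-catCA lots. These sums still hold CD63, also on the wider list, at 48.3 and 16.5 CPM in control lots 1 and 2. CD63 stood at 76.2 and 249 CPM in β-catCA lots 1 and 2, the last from 2 UMIs, so the gap rests in part on this gene. Notochord markers summed to between 2013 and 2124 CPM in the control lots and between 1723 and 1743 CPM in the β-catCA lots, with 8 of 10 rows counted and FOXJ1 and col8a1a at 0. Endoderm markers, all 10 rows counted, summed to between 889 and 1143 CPM and between 747 and 871 CPM, a gap smaller than 1 UMI of β-catCA lot 2, and epidermal markers, all 12 counted, to between 1320.2 and 1449 CPM and between 747 and 961 CPM. For mesoderm, neural and yolk syncytial layer lists the groups overlapped. The part of these differences in the values of P4HA2 and the other members was not tested.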

How the data were processed

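The authors deposited raw UMI counts per Ensembl gene, 1 column per CEL-Seq2 library, with no normalization. Bowtie2 2.3.1, HTSeq 0.6.1 and GRCz10 are named, per the submitters' processing notes; for the annotation release, strand setting and UMI collapsing, nothing is given in these sources. Rows that name no gene (52.4% to 58.3% of counts) stayed out. Symbols came from a table of Ensembl identifiers. No sequences or positions were used here.

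Tests used edgeR 4.0.16 in R 4.3.3: TMM factors, filterByExpr (minimum count 10), quasi-likelihood with robust=TRUE, Benjamini-Hochberg over 1071 genes, threshold 0.05. DESeq2 1.42.0 was an alternative. Simulated counts with known changes were used to test the procedure. The simulation set the same spread for all genes, its outcome is not given, and no statement here rests on it. With 2 libraries against 2 the smallest exact two-sided p is 0.333, so no rank test was made. Lots of a group were not copies (chi-square per degree of freedom 2.39 and 1.75).

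Members and lists were chosen with earlier results of these data known. The named members that are counted here were P4HA2, all tested members, and up to 4 per class with the most UMIs and at least 5. Other members given by name, PLOD3, lamc1 and HAS2 among them, fall outside this rule, and their values had been seen. Of the wider list, the rule named the 6 tested genes with the most UMIs.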

Additional observations from a re-analysis of the deposited data

Results flagged for a closer look

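Unaligned tags made up 35.8% of everything counted in β-catCA lot 2, against 19.9% in β-catCA lot 1 and 21.1% and 22.9% in control lots 1 and 2. The table keeps these tags apart from the genes, and no comparison here uses them. β-catCA lot 2 is the library in which P4HA2 had 1 UMI. The P4HA2 log2 change was -1.78 with this library and -1.75 without it. A library this shallow has little weight in the fit, so the near values say nothing of its quality.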

How the results depend on the processing

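The log2 change of P4HA2 was negative in all 12 alternatives, from -2.17 to -1.41, with an adjusted p of up to 0.995 (DESeq2). The alternatives reuse the same libraries, so the shared sign is no separate support. Leaving out single libraries gave -2.17 to -1.71. P4HA2 passed only without β-catCA lot 2 (-1.75), which leaves 1 library in that group. That setting also called the most genes, so passing there is read as no result. Calls over all genes were 9, and 1 with upper-quartile factors, 0 without the filter, 2 with a minimum of 10 counts throughout 1 group, 1 by DESeq2, 2 with all libraries thinned, and 1 to 15 with single libraries left out. Same-lot deviations correlated at -0.0061 over 1071 genes. That value cannot show whether lots share more than a number, because counting error in the shallow β-catCA lot 2 weakens it. With the lot number as a replicate block 2 genes were called, P4HA2 was at -1.75 (edgeR adjusted p = 0.31), and signs turned for GPC4 (-0.28), NID2 (-0.040), SPARC (0.33), ctsla (0.024) and PDIA6 (0.0087). Thinning turned P4HB (0.29), NID1 (-0.47), NID2 (-1.17) and sar1b (-0.53), DESeq2 turned GPC4 (-0.041) and kdelr2a (-0.10), and the last also turned without the filter (-0.14). Leaving out single libraries turned some genes, with ranges of -0.012 to 1.33 for SERPINH1 ENSDARG00000019949, -0.57 to 1.06 for P4HB, -0.68 to 0.96 for GPC4, -0.39 to 0.64 for NID1, -5.18 to 1.98 for NID2, -4.43 to 1.83 for FN1 ENSDARG00000006526, -0.39 to 1.27 for sdc4, -4.62 to 0.60 for LAMA1, -3.67 to 1.49 for HAPLN1, -3.30 to 1.49 for MMP15, -3.67 to 3.39 for SPARC, -0.47 to 0.26 for ctsla, -0.50 to 0.87 for kdelr2a and -1.02 to 0.24 for PDIA6; where the 1 library kept in a group had 0 UMIs, such a value depends on the prior count. The cause was not tested. All 9 sparse named members turned in some setting, as did 2 of the 7 tested members. Leaving out the most abundant row, chosen after seeing the data, changed no call of a member. Depth limits most members: 34 of 44 had 0 UMIs in β-catCA lot 2.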
